A study of Mus musculus with 6 samples.

Results

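The 10 genes described here encode the enzymes that turn cholesterol into bile acids and join the finished acids to an amino acid. They were chosen by name, as all probe sets with 1 of these gene symbols in the platform annotation, which gave 16 probe sets of 45037 tested and 10 of 18193 genes. RNA came from whole mouse livers at E18.5, a day or so before birth, with 3 control and 3 null livers and 1 array each. Control livers carried 1 loxP-flanked and 1 unflanked Hnf4 allele (HNF4LoxP/+), null livers carried 2 flanked alleles (HNF4LoxP/LoxP), and every embryo of both groups carried the AlfpCre transgene. AlfpCre drives Cre recombinase from albumin and alpha-fetoprotein control elements, so deletion is aimed at the hepatocyte lineage and the blood-forming, endothelial and mesenchymal cells of the liver keep their alleles. The question was how these enzymes' transcripts stood in livers made to lack HNF4 alpha, a nuclear receptor of hepatocytes.

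Bile acids are made in hepatocytes, where they carry cholesterol out of the body and drive bile flow. The classic route opens with hydroxylation of the sterol ring by Cyp7a1, and the alternative route opens with hydroxylation of the side chain by mitochondrial Cyp27a1 followed by Cyp7b1. Hsd3b7, Cyp8b1 and Akr1d1 then remodel the ring, Amacr and Acox2 shorten the side chain in peroxisomes, and Slc27a5 and Baat activate the acid and conjugate it to taurine or glycine. HNF4 alpha is known to bind the Cyp7a1 and Cyp8b1 promoters.

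Promoters of 3 members are shown because they belong to the member with the lowest log2 change, a further member that fell, and the member whose bright probe set did not pass the test. Each run is the 250 bases before the gene's start, read 5′ to 3′ along the gene's strand, from RefSeq on GRCm38.p6. Capitals mark motif matches.
Cyp8b1, chr9:121916306-121916555, minus strand: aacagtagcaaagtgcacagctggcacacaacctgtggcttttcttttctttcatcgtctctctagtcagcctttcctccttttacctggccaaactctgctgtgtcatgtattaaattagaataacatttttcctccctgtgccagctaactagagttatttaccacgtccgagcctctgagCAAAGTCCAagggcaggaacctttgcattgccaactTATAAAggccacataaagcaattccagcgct
Hsd3b7, chr7:127800359-127800608, plus strand: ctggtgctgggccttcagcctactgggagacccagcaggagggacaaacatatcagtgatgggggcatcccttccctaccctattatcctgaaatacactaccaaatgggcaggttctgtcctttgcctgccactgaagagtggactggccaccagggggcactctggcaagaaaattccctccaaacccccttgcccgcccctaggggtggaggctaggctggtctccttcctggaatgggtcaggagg
Cyp27a1, chr1:74713285-74713534, plus strand: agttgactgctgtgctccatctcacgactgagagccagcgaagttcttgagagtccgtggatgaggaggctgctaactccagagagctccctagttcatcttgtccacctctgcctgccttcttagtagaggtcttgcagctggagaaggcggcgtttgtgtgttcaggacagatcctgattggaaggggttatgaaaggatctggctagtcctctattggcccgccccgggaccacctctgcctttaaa
The Cyp8b1 promoter held CAAAGTCCA, a sequence bound by HNF4 alpha, on the gene's strand from 67 to 59 bases before the start, and the TATA box TATAAA from 31 to 26 bases before it, and these matches did not overlap.

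RefSeq windows of 300 bases, 250 before to 50 after a start, were found for 5 of the 10 genes, namely Cyp8b1, Cyp27a1, Hsd3b7, Akr1d1 and Acox2, the last with 2 windows. CAAAGTCCA was found on either strand in 1 of these 6 windows and in 0.475% of all 32851 windows, and TATAAA in 1 of 6 and in 13.6% of all. The other motifs searched on both strands matched none of the 6 windows. These were CAAGGTCA of the receptor LRH-1 (1.56% of all windows), TTGCNNCAA of C/EBP factors (2.08%), AGGTCA repeated after 1 base for HNF4 alpha (0.0396%) and AGGTCA followed after 1 base by TGACCT for the bile acid receptor FXR (0.00913%). A match is a run of letters and was not tested as a binding site here.

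Values are the deposited probe-set intensities, on a linear scale with array medians of 91.8 to 99.6. A log2 change is null minus control on log2(intensity + 32), which understates the change of dim transcripts, and folds are given only for probe sets with both group means above 99.6. A fold is the log2 change turned back to a ratio, so it too is of intensity + 32 and is smaller than the ratio of the printed intensities. Adjusted p values come from limma with Benjamini-Hochberg adjustment over all 45037 probe sets, and a probe set was called at an adjusted p under 0.05. In Hnf4a itself, 2 of 4 probe sets were called lower and the null means lay at 62.2% to 73.7% of the control means. The brightest Hnf4a probe set, 1427001_s_at, overlapped between the groups, with Null_1195 at 2778 beside controls of 2607 to 2877. Nothing read here places these probe sets inside or outside the floxed segment, so they check the labels only in part. The low title numbers of Control_8 and Null_61 go with a low ribosomal RNA control signal (42.1 and 33.5, where the others read 449 to 616). By Xist and Y-linked signal, the embryos of Control_8, Null_1191 and Null_1195 were female, so Control_8 is the only female control as well as the only low-numbered one.

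Most enzymes of the pathway fell in the null livers. Of the 16 member probe sets 10 were called lower and 0 higher, where over all probe sets 5.55% were lower and 1.46% higher. Every null array lay below every control array in these 10 and in no other of the 16, beside 13.8% of all probe sets. In probe sets already called lower this separation largely follows from the call. With each gene read by its brightest probe set, 7 of 10 genes fell (7.85% of all genes) and 0 rose (1.56%), and the median log2 change of the 10 was -1.79 beside 0.01 over all genes. Cyp8b1, Acox2, Hsd3b7, Slc27a5 and Amacr had the lowest log2 changes, from -4.47 to -2.56. Cyp7a1 and Akr1d1 fell by about 1 on the log2 scale, and Cyp7b1, Cyp27a1 and Baat did not pass the test in these probe sets. In whole liver, fewer hepatocytes and less RNA per hepatocyte cannot be told apart.

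**Figure D1:**
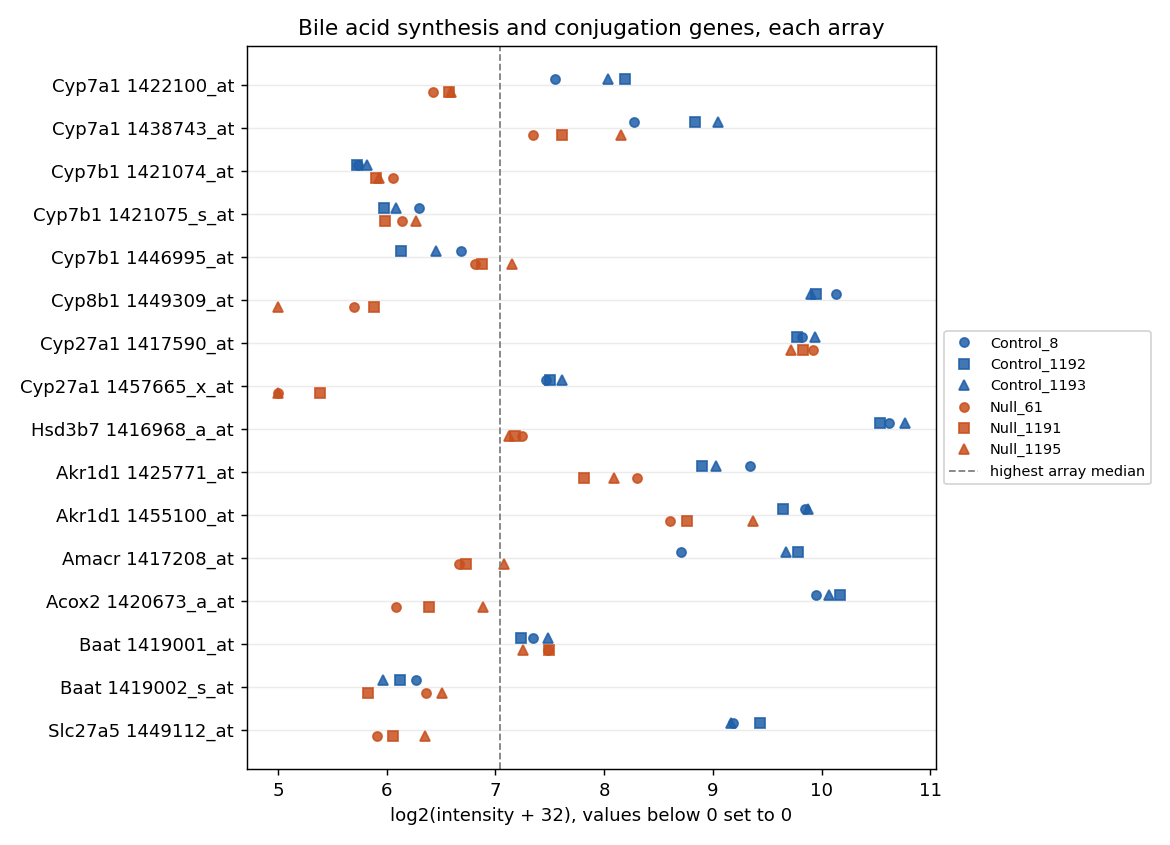
Intensity of each member probe set on each array, as log2(intensity + 32) with values below 0 set to 0; blue is control, orange is null, and the dashed line is the highest array median. The groups are separate in the 10 probe sets that fell, and overlap in the bright Cyp27a1 probe set and in both Baat probe sets.

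The entry enzyme of the classic route fell in both of its probe sets. Cyp7a1, which limits the rate of bile acid synthesis, read 155 in Control_8, 261 in Control_1192 and 230 in Control_1193 in probe set 1422100_at, and 54.2, 63.3 and 64.4 in Null_61, Null_1191 and Null_1195. The null values lie below the array medians, and Control_8 was the lowest control. The log2 change was -1.39 (standard error 0.17, adjusted p = 0.00142). In the brighter probe set 1438743_at the controls read 278, 424 and 496 and the nulls 131, 163 and 254, in the same order of arrays. Null_1195 lay close under Control_8, and the groups did not overlap. This probe set was 2.02-fold lower (log2 change -1.01, standard error 0.25, adjusted p = 0.0453). It was no longer called without Control_1192 (adjusted p = 0.171), Control_1193 (0.155), Null_61 (0.0664) or Null_1191 (0.149), with quantile normalization (0.0565), with a pseudocount of 1 (0.0576), with no intensity trend (0.0566) and with embryo sex as a term (0.108), while 1422100_at was called in every alternative run.

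The entry enzyme of the alternative route read differently in its 2 probe sets. Cyp27a1, the mitochondrial hydroxylase that starts this route and also begins side-chain shortening in both routes, read 873, 844 and 949 in Control_8, Control_1192 and Control_1193 in probe set 1417590_at. The nulls read 937, 879 and 811, inside or next to the control range. The log2 change was -0.02, with a 95% interval from -0.27 to 0.23 and an adjusted p of 0.934, and quantile normalization gave 0.21. A dimmer Cyp27a1 probe set, 1457665_x_at, differed from it, going from control values of 144, 150 and 163 to -43.3, 9.77 and -74.0 in the nulls, and was called lower (adjusted p = 1.88e-05). The suffix _x marks probe sets whose probes can match other transcripts, and with a pseudocount of 1 or 100 its log2 change of -2.40 became -6.12 or -1.29. The 2 probe sets thus disagree on this gene.

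Cyp7b1, the oxysterol hydroxylase that follows Cyp27a1 in the alternative route, was dim, reaching at most 110 on any array. Its brightest probe set, 1446995_at, read 70.5, 38.1 and 55.7 in Control_8, Control_1192 and Control_1193 and 80.1, 85.3 and 110 in Null_61, Null_1191 and Null_1195. All nulls lay above all controls, as in 13.6% of all probe sets, and the log2 change of 0.52 did not pass the test (95% interval 0.14 to 0.91, adjusted p = 0.117). With both Control_8 and Null_61 left out it was 0.72 with an adjusted p of 0.0386. Probe sets 1421074_at and 1421075_s_at lay between 21.1 and 46.6 on all arrays, under every array median, with log2 changes of 0.20 and 0.01 (adjusted p = 0.450 and 0.978).

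The ring-modifying enzymes fell to very different extents. Cyp8b1, the sterol hydroxylase that directs synthesis to cholic acid and whose promoter is printed above, read 1090 in Control_8, 955 in Control_1192 and 924 in Control_1193. Null_61 read 19.8, Null_1191 27.0 and Null_1195 -6.30, so a bright transcript fell to the background of these arrays. Its log2 change of -4.47 (standard error 0.22, adjusted p = 4.23e-06) was reached or passed by 29 of 18193 genes, itself included. The size is set by the pseudocount, with -6.89 at a pseudocount of 1 and -3.24 at 100. Hsd3b7, which oxidises the ring hydroxyl in both routes, read 1546, 1456 and 1712 in controls against 120, 113 and 107 in nulls. Both groups were tight and far apart, with the null mean at 7.22% of the control mean and a fall of 11.0-fold on intensity + 32 (log2 change -3.46, standard error 0.11, adjusted p = 5.60e-07).

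Akr1d1, the reductase that gives the ring system its bent shape, fell less than Hsd3b7 or Cyp8b1 in value. Probe set 1425771_at read 618, 445 and 492 in Control_8, Control_1192 and Control_1193 and 283, 193 and 241 in Null_61, Null_1191 and Null_1195, a 2.03-fold fall (log2 change -1.02, standard error 0.17, adjusted p = 0.00648). For probe set 1455100_at the controls read 889, 767 and 907 and the nulls 358, 403 and 628. Null_1195 stood nearest to the controls there, and the fall was 1.83-fold (log2 change -0.88, standard error 0.19, adjusted p = 0.0287). That call, of 1455100_at, missed the threshold without Control_8 (adjusted p = 0.10), Control_1192 (0.0784), Control_1193 (0.111) or Null_1191 (0.113), with quantile normalization (0.0753) and when Control_8 and Null_61 were both left out (0.0677). The call of 1425771_at held in each of these.

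The peroxisomal enzymes of side-chain shortening fell together. Acox2, the oxidase that opens the shortening of the side chain, read 956, 1118 and 1041 in Control_8, Control_1192 and Control_1193 and 35.8, 51.8 and 86.1 in Null_61, Null_1191 and Null_1195. All nulls lay under the array medians (log2 change -3.61, standard error 0.19, adjusted p = 8.40e-06). Amacr, the racemase that sets the side chain's configuration for Acox2, read 385, 850 and 784 in controls and 69.7, 74.4 and 104 in nulls. Control_8 was far below the other controls yet well above every null. The log2 change was -2.56 (standard error 0.27, adjusted p = 0.000503), and -2.90 without Control_8.

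The conjugation steps did not move alike in value. Slc27a5, the ligase that activates bile acids with coenzyme A, read 552, 658 and 542 in Control_8, Control_1192 and Control_1193 and 28.3, 34.4 and 49.5 in Null_61, Null_1191 and Null_1195. It went from well above the array medians to well under them in every null (log2 change -3.16, standard error 0.15, adjusted p = 3.64e-06). Baat, which transfers the activated acid to taurine or glycine, read 130, 119 and 147 in controls and 147, 148 and 120 in nulls for probe set 1419001_at. These values lie a little above the array medians in both groups and overlap, with a log2 change of 0.06, a 95% interval from -0.24 to 0.35 and an adjusted p of 0.841. Probe set 1419002_s_at lay between 24.8 and 59.0 on all arrays (log2 change 0.11, adjusted p = 0.785).

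**Figure D2:**
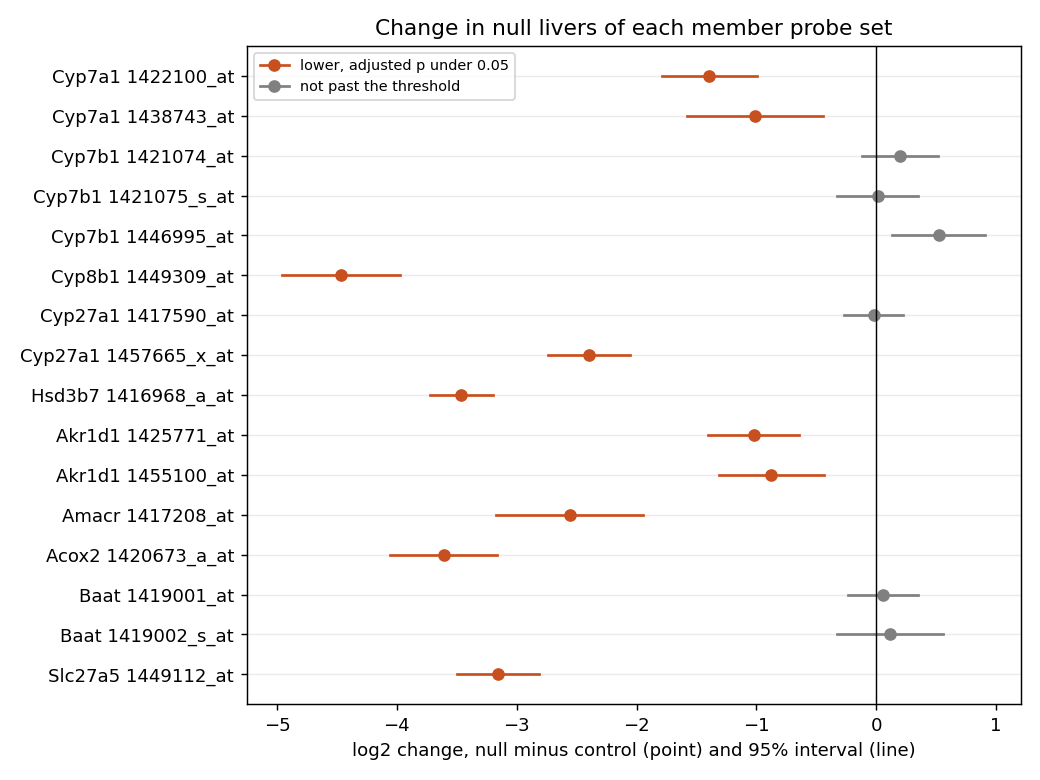
Log2 change of each member probe set, null minus control, with its 95% interval from limma. Probe sets called lower (orange) run from -4.47 for Cyp8b1 to -0.88 for Akr1d1 1455100_at, and those that did not pass the threshold (grey) run from -0.02 to 0.52.

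Whether members changed unequally was asked directly for 3 pairs, by an exact two-sided permutation test over arrays of the per-array log2 difference between both genes. The pairs were chosen with earlier results of these data known. Each sets a member called lower against one not called, so the differences largely restate those calls. With 3 arrays against 3 this exact test cannot go below p = 0.1, and each pair gave that p with no overlap between groups. The change of Cyp7a1 was 1.53 lower than that of Cyp7b1 on the log2 scale (-1.01 and 0.52), with SDs of the per-array difference of 0.61 in the controls and 0.23 in the nulls. For Cyp8b1 and Cyp7b1 the difference was -4.99, and for Baat and Slc27a5 it was 3.21. A further comparison, chosen after the values were seen, fitted the change of every probe set relative to that of Cyp27a1 1417590_at with limma. Of the 15 other member probe sets 8 fell relative to it, where 4.33% of all probe sets did, and these belonged to Cyp7a1, Cyp8b1, Hsd3b7, Akr1d1, Amacr, Acox2, Slc27a5 and the dimmer Cyp27a1 probe set. Cyp7a1 1438743_at and Akr1d1 1455100_at missed the threshold (adjusted p = 0.0521 and 0.0502). The reference probe set itself had a log2 change of only -0.02. The comparison therefore largely repeats the calls given above and is no separate support for them.

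The 3 null livers were not in the same order in every member. Over the 10 genes, the median log2 difference from the control mean was -1.43 in Null_1195, -1.88 in Null_1191 and -2.04 in Null_61. The median of Null_1195 falls in a wide gap, between -2.30 for Amacr and -0.56 for Cyp7a1 1438743_at, so it is a rough measure. Null_1195 was the brightest null in 6 of the 10 probe sets that fell, namely both of Cyp7a1, Akr1d1 1455100_at, Amacr, Acox2 and Slc27a5, and it was the brightest null in 42.3% of all 2501 probe sets called lower. So few member probe sets do not set the members apart from that share. Cyp8b1 and Hsd3b7 were lowest in Null_1195. The Gapdh control probe sets, which read the transcript's ends, gave a 3′ to 5′ ratio of 1.28 in Null_1195 and 0.934 to 1.06 on the other 5 arrays, and a 5′ signal of 3553 against 4756 to 6390. The part of this difference in the members' values was not tested. Null_1195 also had the highest Hnf4a value in 2 of the 4 Hnf4a probe sets (1427001_s_at and 1421983_s_at) and Null_61 in the other 2, and any link between Hnf4a signal and the members was not tested.

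**Figure D3:**
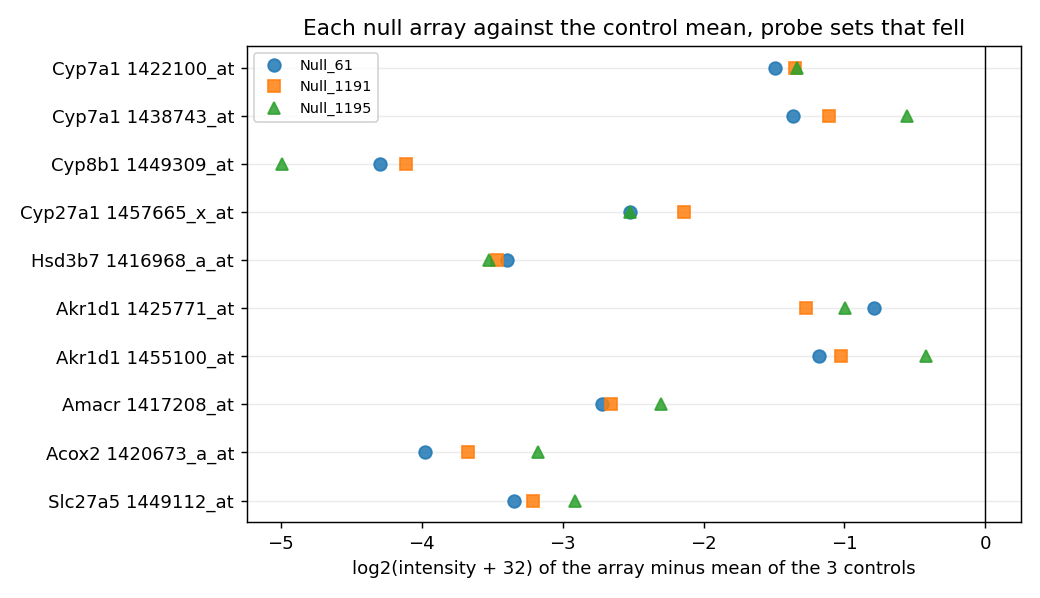
Log2(intensity + 32) of each null array minus the mean of the 3 controls, for the 10 member probe sets that fell. Null_1195 lies nearest to the control mean in 6 of the 10, and is the lowest of the nulls for Cyp8b1 and Hsd3b7.

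Among the controls, Control_8 was the lowest in both Cyp7a1 probe sets, Amacr, Acox2 and Cyp27a1 1457665_x_at, and the highest in Cyp8b1, Akr1d1 1425771_at, Baat 1419002_s_at and Cyp7b1 1421075_s_at and 1446995_at. Embryo sex and the run of title numbers cannot be told apart within the controls. Between the low-numbered arrays alone, the log2 difference of Null_61 from Control_8 was -4.44 for Cyp8b1, -3.87 for Acox2, -3.38 for Hsd3b7, -3.27 for Slc27a5 and -2.04 for Amacr, a pair with no replicate. In the other 4 arrays the same genes had log2 changes of -4.48, -3.48, -3.50, -3.10 and -2.82. These genes were lower in the nulls in both runs.

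Related genes of the pathway were read from 5 lists drawn up by function with earlier results of these data known, 1 probe set per gene. Of 33 listed genes 27 were measured, 12 fell and 0 rose, where 7.85% of all genes fell and 1.56% rose. Their median log2 change was -0.78, beside 0.01 over all genes. Among P450 electron donors 3 of 3 measured genes fell. Fdx1, the ferredoxin that passes electrons to mitochondrial P450s such as Cyp27a1, went from 1626 ± 143 to 507 ± 138 (SD, n = 3 arrays in each group), or 31.2% of the control mean and 3.14-fold lower on intensity + 32. Cyb5a and Cyb5r3, the microsomal cytochrome b5 and its reductase, fell 2.07-fold and 1.72-fold (adjusted p from 0.000297 to 0.00439 for the 3 genes).

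Among other sterol and bile acid hydroxylases 2 of 5 fell. Cyp2c70, which makes the muricholic acids typical of mice, went from 3138 ± 161 to 262 ± 134, or 8.36% of the control mean (11.5-fold lower on intensity + 32, adjusted p = 8.20e-05 by limma). Cyp39a1, an oxysterol hydroxylase, went from 405 ± 95.5 to 88.3 ± 12.6. Of 6 peroxisomal and acyl-CoA genes that act beside Amacr and Acox2, 4 fell. Slc27a2, an acyl-CoA synthetase, fell 8.43-fold, Scp2, whose product includes the thiolase that releases the shortened acid, 5.86-fold, Hsd17b4, the bifunctional enzyme after Acox2, 2.49-fold, and Abcd3, a peroxisomal importer, 2.21-fold. All 4 had log2 changes between -3.07 and -1.15. Every null lay below every control in them, as in 13.8% of all probe sets, which largely follows from the calls.

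The regulators moved less in value, their median log2 change being -0.29, and 2 of 11 measured genes fell. Nr1h4, which encodes the bile acid receptor FXR, went from 352 ± 67.5 to 107 ± 31.3, or 30.4% of the control mean (2.78-fold lower on intensity + 32, adjusted p = 0.00249 by limma). Nr0b2, the FXR target SHP that represses Cyp7a1 and Cyp8b1, went from 208 ± 69.2 to 65.1 ± 10.3, which missed the threshold if Control_1192 was dropped (adjusted p = 0.0510). The probe set that stands for Ppara, 1457721_at, averaged 664 in controls and 583 in nulls and was not called. The other 2 Ppara probe sets were called lower, with log2 changes of -3.04 and -2.88. Their means were higher in controls, at 930 and 894, and were 86.7 and 83.0 in nulls. The probe set that stands for a gene is chosen on nulls as well as controls. The regulator count thus depends on the probe set taken for Ppara. Of 2 genes of cholesterol supply, Scarb1, the HDL receptor, fell 1.85-fold. Hepatocyte transporters of bile salts and other bile constituents were read as well. Abcb11, Slc10a1, Slco1b2, Abcc2 and Abcb4 all fell, with log2 changes of -5.54, -4.72, -4.22, -1.38 and -0.91. Over all genes 7.85% fell, but these transporters were added after their values were seen, so their count is no test against that share. The null means of Abcb11, Slc10a1 and Slco1b2 were -21.8, 77.8 and 25.4. Each of their null values lay under its array's median, so the sizes of their changes depend on the pseudocount of 32.

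**Figure D4:**
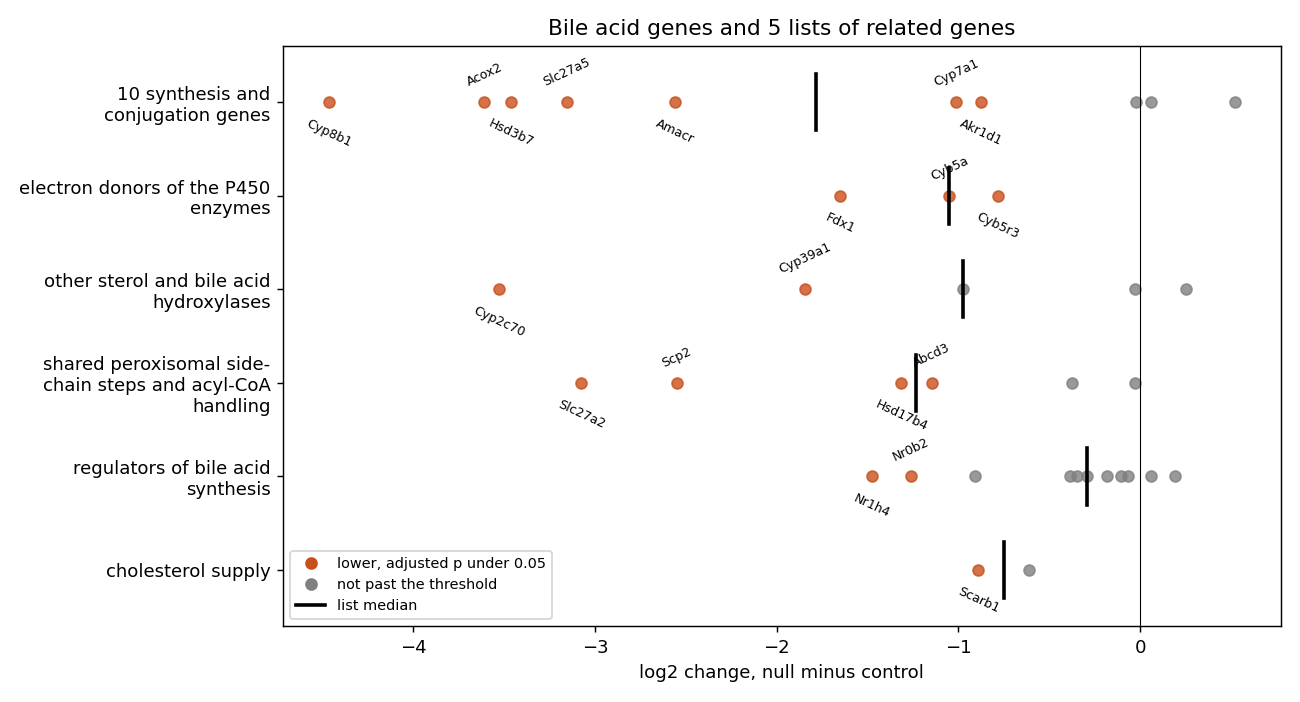
Log2 change, null minus control, of the 10 member genes and of 5 lists of related genes, 1 point per gene at its brightest probe set, with the list median as a black bar. Named orange points were called lower, and grey points did not pass the threshold.

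As a description of likeness, the mean log2 profile of the 9 members above the median level was set against 12351 other genes over the 6 arrays. The 5 genes with the highest Pearson r, from 0.9989 to 0.9996, were Phyh, 2310033P09Rik, Mtarc1, Obsl1 and Igfbp2, of which Phyh encodes a peroxisomal hydroxylase of branched fatty acids. The points are shared by all genes and split by group, and 902 genes had r over 0.95.

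Hepatocyte transcripts remained bright in the nulls. Alb and Afp, which mark hepatocytes and fetal hepatoblasts, averaged 10532 and 11969 in controls and 10651 and 11463 in nulls, close to the highest values on the arrays (12299 to 12608), a range that can hide a difference. Of 6 measured hepatocyte markers 4 fell, namely Ttr, Apoa1, Apoa2 and Ahsg, and the summed signal went from 67298 to 67700 in the controls to 43466 to 45444 in the nulls. Of 8 macrophage markers 3 rose (summed signal 4508 to 5182 in the controls and 5689 to 8202 in the nulls), of 5 megakaryocyte markers 3 fell (4996 to 7010 and 3534 to 4043) and of 6 endothelial markers 3 fell (1705 to 1939 and 1179 to 1387). None of 6 erythroid (13140 to 14492 and 15193 to 16628), 7 stellate and mesenchymal (2902 to 3842 and 3706 to 5697) or 5 biliary markers (735 to 913 and 688 to 906) was called by limma. Over all genes, 7.85% fell and 1.56% rose. Each summed signal is weighted to the brightest genes of its list. No marker was listed at 0, and the part of these shifts in the members' falls was not tested.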

How the data were processed

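Total RNA from 6 fetal livers was labelled with biotin and hybridised to Affymetrix mouse arrays, per the labels' protocols. The deposited table holds a linear intensity per probe set and array, with 0.909% to 1.34% of each array below 0. How probes were summarised and arrays scaled, and with which software, is not stated. Negative values were raised to 0 before log2(intensity + 32); array medians then differed by at most 0.0877, so the deposited scaling was kept. Of 45101 probe sets 64 controls were left out. The platform annotation gave 1 symbol to 34945 of the 45037 tested, several to 932 and none to 9160. By Entrez number 34741 matched a RefSeq gene (GRCm38.p6), and 0 symbols changed. A gene was read by its probe set with the highest mean log2 value.

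The fit used limma 3.58.1 under R 4.3.3 (lmFit, eBayes with an intensity trend, all 6 arrays, no covariate), two-sided, with Benjamini-Hochberg adjustment over all tested probe sets. The labels do not say whether livers came from different litters, so p values reflect only how these arrays vary, and their number limits the precision. The members, lists, motifs and tests were chosen with earlier results of these data known. All member probe sets, called genes of the 5 related lists and the 5 genes most alike are named. The 2 other Ppara probe sets, the bile transporters and the comparison with Cyp27a1 were added after their values were seen. The fit was tested on simulated data. Of the 33 listed genes 6 were not analysed here. Alternatives changed the normalization, pseudocount, filter, variance model, covariates, probe-set choice or arrays, 1 at a time.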

Additional observations from a re-analysis of the deposited data

How the results depend on the processing

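All 10 member probe sets that fell stayed lower in up to 16 alternatives each, and 8 were called in every one. All 12 called pathway genes stayed lower; Nr0b2 lost its call without Control_1192, and Cyb5r3 and Scarb1 fall short of a 2-fold minimum. The number of member probe sets lower was 8 with quantile normalization and 9 or 10 in the other alternatives with all arrays, and 8 to 10 with 1 array left out. The number higher was 0 except for 1 (Cyp7b1 1446995_at) in the 4 arrays other than Control_8 and Null_61. Pathway genes lower ranged from 10, with at least a 2-fold change, to 16, with array weights, and from 11 to 15 with 1 array left out. Relative to Cyp27a1, 8 to 10 member probe sets were lower. The differences in change kept their signs in the alternatives run for them, but their test cannot pass the threshold. Without Null_61, Null_1191 or Null_1195, the exact test gave p = 0.2 for Cyp7a1 against the dim Cyp7b1. The other pairs stayed at 0.1 there.

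Changes near 0 turned sign. Quantile normalization gave -0.047 for Cyp7b1 1421075_s_at, 0.21 for Cyp27a1 1417590_at and 0.0091 for Ppara 1457721_at, and embryo sex as a term gave -0.032 and 0.0086 for the first and second of these. With 1 array left out, Cyp7b1 1421075_s_at ranged from -0.060 to 0.098, Cyp27a1 1417590_at from -0.070 to 0.031, Baat 1419001_at from -0.0015 to 0.14 and Baat 1419002_s_at from -0.025 to 0.32. The cause was not tested. Over all genes, 1196 fell and 617 rose with quantile normalization, against 1428 and 283. No paired analysis was possible because the groups share no replicate numbers; the number run as a block changed no member's call. Cyp7b1 (except Null_1195 in 1446995_at) and Baat 1419002_s_at lie under the array medians, where a change or its size is poorly measured. So do the null values of Cyp8b1, Acox2, Slc27a5, Cyp7a1 1422100_at, Cyp27a1 1457665_x_at and, except in Null_1195, Amacr.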
